A study of Mus musculus with 16 samples.

Results

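The aminoacyl-tRNA synthetase genes were examined in RNA sequencing of the tibialis anterior, a fast leg muscle, from male C57BL6/J mice with and without muscle loss of UBR4, a ubiquitin ligase of the N-end rule family. Members were the genes whose symbol is a one-letter amino acid code followed by ars, with or without a suffix, together with Farsa, Farsb, Eprs and Tarsl2. They came to 38 of the 47643 genes in the table, and all 38 were among the 10628 genes that reached a mean of 1 TPM (a level corrected for transcript length and scaled to the same total in every sample) and were tested. Of the 38, 19 encode cytosolic enzymes, 17 with the suffix 2 encode mitochondrial enzymes, and Gars and Kars each serve both compartments.

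The 16 muscles fell into 4 groups of 4, which were WT at 6 months, UBR4 mKO at 6 months, WT at 24 months and UBR4 mKO at 24 months. Per the study's methods, every mouse carried homozygous floxed Ubr4 alleles and received tamoxifen in adulthood. UBR4 mKO mice in addition carried ACTA1-Cre, an inducible recombinase driven by the skeletal muscle actin promoter, so that recombination was limited to skeletal muscle fibers, whereas WT mice were floxed littermates lacking Cre. The GEO labels say only wild type or UBR4 knockout. Other cells of the tissue keep an intact gene, and in bulk tissue fewer cells of a type and less RNA per cell cannot be told apart.

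Aminoacyl-tRNA synthetases join each amino acid to its tRNA and so supply the ribosome with charged tRNA. Cytosolic and mitochondrial translation use separate enzymes for most amino acids, all encoded in the nucleus. Several cytosolic enzymes sit together in the multi-synthetase complex, held by scaffold proteins, and many cytosolic synthetase genes are known targets of ATF4, the transcription factor that answers amino acid shortage through the C/EBP-ATF response element.

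RefSeq promoter windows (GRCm38.p6, from 250 bases before to 50 bases after the annotated start) were at hand for 28 of the 38 members, 14 cytosolic or shared and 14 mitochondrial. The other 10 had none. A search of both strands for TGATGNAA, the letters of the C/EBP-ATF response element, found it in 5 of the 14 cytosolic or shared windows and in 0 of the 14 mitochondrial windows, against 4.51% of all 27025 genes with a window. The narrower form TGATGCAA was present in Aars, Iars, Tars and Yars and in 1.03% of all genes. The 5 windows are shown because they hold the match, and capitals mark each match on either strand.
Yars (chr4:129189653-129189952, plus strand): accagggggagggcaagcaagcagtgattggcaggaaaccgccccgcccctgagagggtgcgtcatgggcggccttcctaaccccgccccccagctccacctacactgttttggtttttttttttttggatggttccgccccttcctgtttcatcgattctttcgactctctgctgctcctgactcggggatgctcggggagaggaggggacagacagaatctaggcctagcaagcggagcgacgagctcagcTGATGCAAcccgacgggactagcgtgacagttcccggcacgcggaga
Gars (chr6:55037751-55038050, plus strand): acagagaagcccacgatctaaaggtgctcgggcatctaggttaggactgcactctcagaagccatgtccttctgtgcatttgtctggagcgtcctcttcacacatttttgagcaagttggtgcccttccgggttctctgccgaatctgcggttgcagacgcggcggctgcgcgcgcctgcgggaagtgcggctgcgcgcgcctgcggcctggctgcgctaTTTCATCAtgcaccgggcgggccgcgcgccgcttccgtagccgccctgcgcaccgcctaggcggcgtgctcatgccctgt
Aars (chr8:111033592-111033891, plus strand): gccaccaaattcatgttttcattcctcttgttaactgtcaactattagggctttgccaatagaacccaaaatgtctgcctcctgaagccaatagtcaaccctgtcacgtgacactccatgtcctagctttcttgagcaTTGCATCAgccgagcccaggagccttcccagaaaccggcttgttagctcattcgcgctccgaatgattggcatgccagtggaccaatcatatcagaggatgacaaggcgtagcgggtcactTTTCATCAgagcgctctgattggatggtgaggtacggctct
Iars (chr13:49681880-49682179, plus strand): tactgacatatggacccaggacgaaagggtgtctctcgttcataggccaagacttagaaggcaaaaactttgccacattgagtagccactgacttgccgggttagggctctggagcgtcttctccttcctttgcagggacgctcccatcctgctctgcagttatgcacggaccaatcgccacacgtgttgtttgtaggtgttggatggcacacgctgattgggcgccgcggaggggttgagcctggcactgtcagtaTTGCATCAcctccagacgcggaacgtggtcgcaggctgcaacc
Tars (chr15:11399609-11399908, minus strand): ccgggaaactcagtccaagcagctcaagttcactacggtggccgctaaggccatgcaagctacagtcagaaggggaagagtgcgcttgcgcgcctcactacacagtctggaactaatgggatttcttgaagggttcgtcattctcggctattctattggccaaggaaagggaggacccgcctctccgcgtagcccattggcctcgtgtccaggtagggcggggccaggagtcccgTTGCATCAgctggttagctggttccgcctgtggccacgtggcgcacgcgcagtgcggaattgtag

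Aars carried 2 matches in its window and the other 4 genes 1 each. Other letters searched on both strands were found in both compartments. CCAAT was present in 7 of 14 cytosolic or shared windows and in 6 of 14 mitochondrial windows, against 41.1% of all genes, and CCGGAAG was present in 5 and in 4, against 9.93%. CACGTG was present in 4 cytosolic windows and in 1 mitochondrial window, that of Ears2, against 8.09% of all genes. The NRF1 motif was present in 3 and 2 windows (5.19% of all genes) and TATAAA in 1 and 2 (15.7%). A match is a run of letters only, and each TGATGCAA is also counted as a TGATGNAA.

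Before the members were compared, the libraries were checked as a whole. Within groups, samples correlated at r = 0.965 to 0.993 over the 24 pairs, and none held identical values. Ubr4 itself was at 11.1, 15.7, 13.2 and 9.09 TPM in WT and at 4.98, 4.91, 5.51 and 6.54 TPM in UBR4 mKO muscle at 6 months, and at 17.2, 16.98, 17.8 and 21.1 TPM against 10.1, 14.6, 4.28 and 7.63 TPM at 24 months, with no overlap between genotypes at either age. The 8 skeletal muscle markers summed to between 60533 and 80152 TPM in every sample. The 37 mitochondrially encoded genes took 56.3% ± 3.01 of TPM in WT at 6 months, against 47.9% ± 1.71 in UBR4 mKO at 6 months, 50.1% ± 1.85 in WT and 48.6% ± 1.57 in UBR4 mKO at 24 months (SD, n = 4 each). Beside this, the median tested gene was higher by 0.33 (log2) in UBR4 mKO than WT muscle at 6 months and by 0.26 at 24 than at 6 months in WT. It moved by 0.013 between genotypes at 24 months and by -0.043 with age in UBR4 mKO muscle. Changes are therefore also given relative to the median gene and under median-of-ratios scaling, which sets each sample by its median ratio to a reference over genes.

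Levels spanned a wide range among members. Cytosolic genes had a median over genes of 22.6 TPM and mitochondrial genes 5.72 TPM, against 6.86 TPM for all tested genes, which put the median cytosolic gene at the 78.7th percentile and the median mitochondrial gene at the 44.5th. Lars2, the mitochondrial leucyl enzyme, had the highest mean at 295.7 TPM and Mars2, the mitochondrial methionyl enzyme, the lowest at 1.57 TPM. After Lars2 came Nars and Kars at 69.2 and 68.8 TPM, the asparaginyl and lysyl enzymes. In the order by mean level, 36 of 37 neighbouring pairs overlapped in their sample ranges, and the exception was the step from Kars (61.0 to 79.3 TPM) to Tarsl2 (23.8 to 36.5 TPM).

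**Figure D1:**
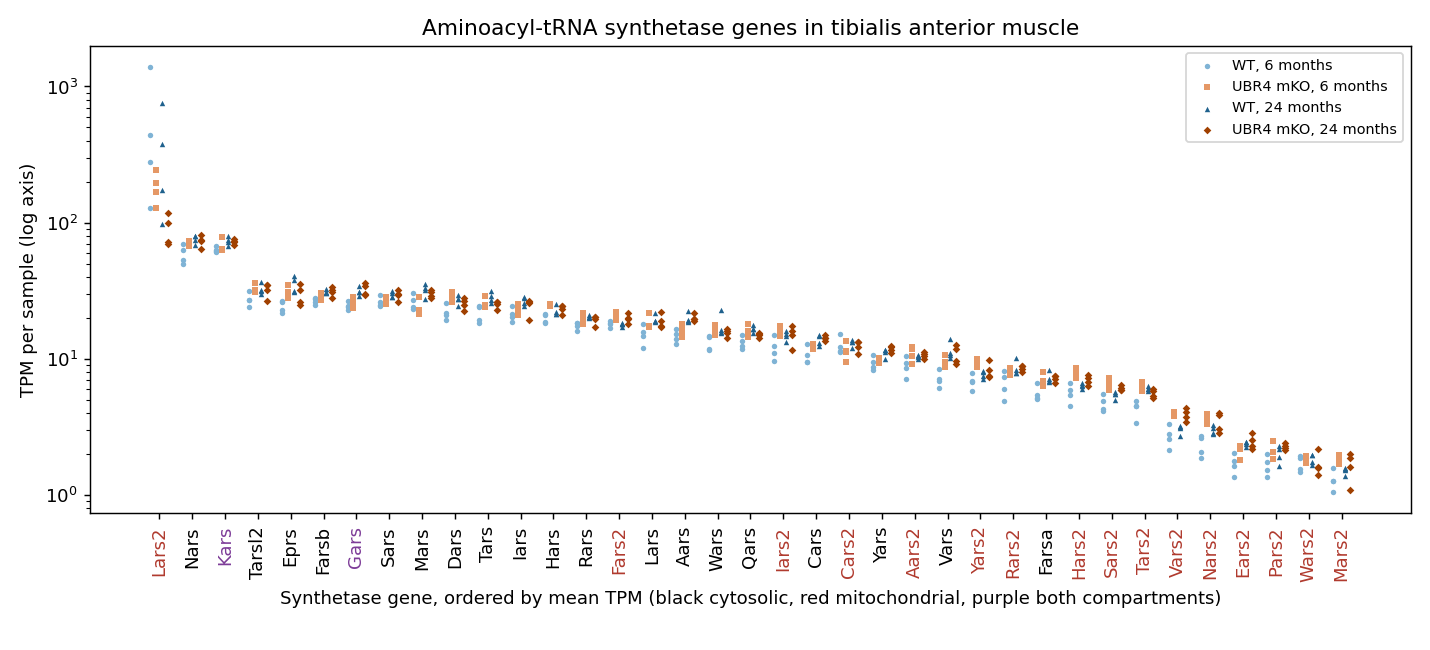
TPM (log axis) of 37 of the 38 synthetase genes in each of the 16 samples, genes ordered by mean level, with colour and shape marking the 4 groups. Most genes form tight stacks between about the level of Mars2 (mean 1.57 TPM) and Nars (69.2 TPM), whereas Lars2 runs from 69.8 to 1386 TPM.

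Lars2 was set apart by its spread. Its level was 127, 438, 1386 and 279 TPM in WT and 167, 243, 128 and 195 TPM in UBR4 mKO muscle at 6 months. At 24 months it was 175, 98.4, 381 and 755 TPM in WT and 71.5, 118, 69.8 and 99.6 TPM in UBR4 mKO muscle. WT replicates differed by over an order of magnitude at 6 months, and the genotypes overlapped at both ages. The log2 change was -1.10 ± 0.59 (SE, adjusted p = 0.129, limma) at 6 months and -1.60 ± 0.59 (adjusted p = 0.314) at 24 months, so that neither passed. With age in UBR4 mKO muscle every sample at 24 months lay below every sample at 6 months (-1.03 ± 0.59, adjusted p = 0.373). Lars2 (chr9:123366927-123462666, plus strand, GENCODE vM21 on GRCm38) followed Gm26917, a long non-coding RNA gene, more closely than any other of the 10627 genes it was compared with, with Pearson's r = 0.975 and Spearman's rho = 0.944 on log2 levels over the 16 samples. The next gene, Ifngr2, had r = 0.71, and the other 37 synthetase genes ranged from -0.50 (Nars2) to 0.38 (Wars2) with a median of -0.26. Gm26917 was at 10.3, 44.6, 157.6 and 21.5 TPM in WT and 13.1, 21.2, 12.1 and 17.1 TPM in UBR4 mKO muscle at 6 months. In the same sample, the third WT replicate, both genes were highest. No stretch of the Lars2 transcript matched Gm26917 in a blastn search, whereas 72 of its 3894 bases (positions 3278 to 3349 from the 5′ end) matched the antisense gene Gm15564 at 98.6% identity. The part of either gene in the level assigned to Lars2 was not tested. Lars2 made up 38.2% to 93.8% of the summed mitochondrial synthetase TPM in a sample, so medians of the mitochondrial enzymes are also given without it.

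**Figure D2:**
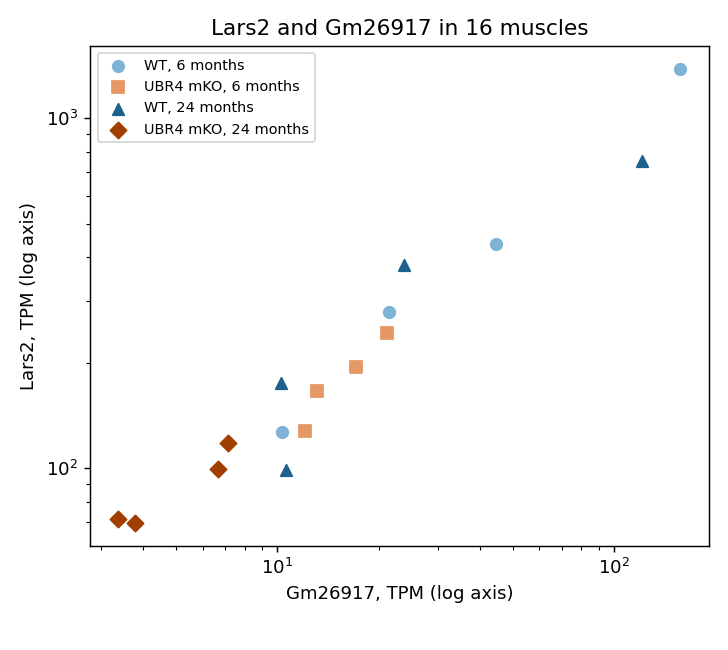
Lars2 against Gm26917 in each of the 16 muscles, both in TPM on log axes, coloured by group. The points lie along 1 rising line (r = 0.975 on log2 levels), from 69.8 TPM of Lars2 in a UBR4 mKO muscle at 24 months to 1386 TPM in a WT muscle at 6 months.

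The first comparison asked which synthetase genes differ between UBR4 mKO and WT muscle at 6 months. As deposited, 16 of 38 members rose and 0 fell, where 43.7% of all tested genes were called higher and 1.15% lower, so the share of members called (16 of 38) was close to the background. Dunn's test, run without a Kruskal-Wallis test before it, called 9, and 23.4% of all genes. The mitochondrial enzymes contributed 9 of 17 (Aars2, Hars2, Iars2, Mars2, Nars2, Sars2, Tars2, Vars2 and Yars2) and the cytosolic enzymes 7 of 19 (Dars, Eprs, Farsa, Hars, Qars, Vars and Wars). Members whose groups did not overlap and lay higher numbered 13 of 38, against 39.0% of all genes. The median log2 change was 0.26 over cytosolic and 0.32 over mitochondrial members, against 0.33 over all tested genes. Without Lars2 the mitochondrial median was 0.38, so that it lay 0.0037 below the median gene with Lars2 and 0.050 above it without. Only 11 of 38 members exceeded the median gene, 3 of 19 cytosolic and 8 of 17 mitochondrial.

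Nars2, which charges mitochondrial tRNA with asparagine, rose most. It was at 2.59, 2.69, 2.05 and 1.87 TPM in WT and 3.31, 3.71, 3.55 and 3.90 TPM in UBR4 mKO muscle, with every UBR4 mKO sample above every WT sample. The change of 0.64 ± 0.14 log2 (SE, adjusted p = 0.00244, limma) lay 0.32 above the median gene, and it passed under median-of-ratios scaling too (0.30, adjusted p = 0.0376), though there in only 8 of 16 fits, each without 1 sample. Vars2, the mitochondrial valyl enzyme, was at 2.56, 3.28, 2.80 and 2.12 TPM in WT and 3.82, 3.92, 4.06 and 4.08 TPM in UBR4 mKO muscle, again without overlap. It rose by 0.56 ± 0.13 (adjusted p = 0.00318), whereas with median-of-ratios scaling the change was 0.22 with adjusted p = 0.142. Tars2, the mitochondrial threonyl enzyme, went from 4.52, 4.90, 4.46 and 3.37 TPM to 6.06, 5.77, 6.62 and 6.72 TPM and rose by 0.54 ± 0.11 (adjusted p = 0.00186). Mars2, the lowest-expressed member, went from 1.26, 1.58, 1.27 and 1.04 TPM to 1.70, 1.88, 1.96 and 1.95 TPM and rose by 0.52 ± 0.17 (adjusted p = 0.023), a call lost without WT replicate 4 or UBR4 mKO replicate 3 or 4 at 6 months (adjusted p up to 0.0801). Under median-of-ratios scaling the changes of Tars2 and Mars2 were 0.20 (adjusted p = 0.128) and 0.19 (adjusted p = 0.285).

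Median-of-ratios scaling called 7 members, 1 higher (Nars2) and 6 lower (Cars2, Iars, Kars, Mars, Sars and Yars), where 6.66% of all genes were called higher and 10.2% lower. Of the 16 rises in TPM as deposited, 6 changed sign under this scaling (Aars2, Eprs, Farsa, Hars, Qars and Wars), and of the 6 falls, 4 had been positive in TPM as deposited (Iars, Kars, Sars and Yars). Mars and Cars2, picked after their values were seen, had a negative change in both and were called in all 16 fits without 1 sample with median-of-ratios scaling. Mars, the cytosolic methionyl enzyme of the multi-synthetase complex, was at 26.8, 30.3, 24.1 and 23.0 TPM in WT and 21.5, 21.2, 22.7 and 28.4 TPM in UBR4 mKO muscle, overlapping in TPM. Its change was -0.15 ± 0.11 (adjusted p = 0.251) as deposited, or 0.48 below the median gene, and -0.51 ± 0.090 (adjusted p = 0.00173) with median-of-ratios scaling. Mars shares 68 exonic bases with Ddit3 on the opposite strand, and the use of strand in counting is not given in the sources used here. Cars2, the mitochondrial cysteinyl enzyme, was at 12.1, 15.1, 11.3 and 11.4 TPM and at 9.38, 11.3, 11.3 and 13.6 TPM, with a change of -0.13 ± 0.12 (adjusted p = 0.357) as deposited and -0.48 ± 0.11 (adjusted p = 0.00786) with median-of-ratios scaling.

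Leaving out WT replicate 4 or UBR4 mKO replicate 4 at 6 months left 8 calls each in TPM as deposited, and leaving out WT replicate 2 gave 25, where the same fits called 25.8%, 30.5% and 58.7% of all genes. Dars, Hars, Hars2, Nars2, Sars2, Tars2, Vars2 and Yars2 were called in every such fit. Several marker sums moved with the same groups. The 7 leukocyte markers found went from 13.8 to 20.5 TPM in WT to 46.7 to 159.5 TPM in UBR4 mKO muscle at 6 months, with none at 0 in all samples, and the sums of the 6 adipocyte, 5 endothelial and 5 satellite cell and regeneration markers were higher without overlap, as was that of the 8 skeletal muscle markers. Their part in the synthetase changes was not tested.

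The genotype comparison at 24 months gave 0 calls among the 38 members with limma, where 0.433% of all genes were called higher and 0.198% lower. At an unadjusted p under 0.05 there were 2 members, against 10.1% of all genes, and Dunn's test called 0 members and 0.00% of all genes. Median-of-ratios scaling also called 0, against 0.414% of all genes higher and 0.499% lower. Members changed by a median of -0.055 (cytosolic) and 0.046 (mitochondrial, or 0.062 without Lars2), against 0.013 for all genes, and 3 of 19 cytosolic but 11 of 17 mitochondrial members lay above the median gene. Vars2 and Sars2, the mitochondrial valyl and seryl enzymes, were the 2 members whose groups did not overlap, against 4.29% of all genes. Vars2 was at 3.09, 3.17, 3.18 and 2.68 TPM in WT and 3.72, 3.42, 4.03 and 4.33 TPM in UBR4 mKO muscle, a difference of 0.34 ± 0.13 (adjusted p = 0.31). Sars2 was at 4.999 to 5.68 TPM in WT and 5.90 to 6.44 TPM in UBR4 mKO muscle, a difference of 0.17 ± 0.10 (adjusted p = 0.672). The 7 leukocyte markers were again higher in UBR4 mKO muscle without overlap (26.3 to 54.9 against 66.1 to 283.5 TPM), as were the 6 adipocyte markers.

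**Figure D3:**
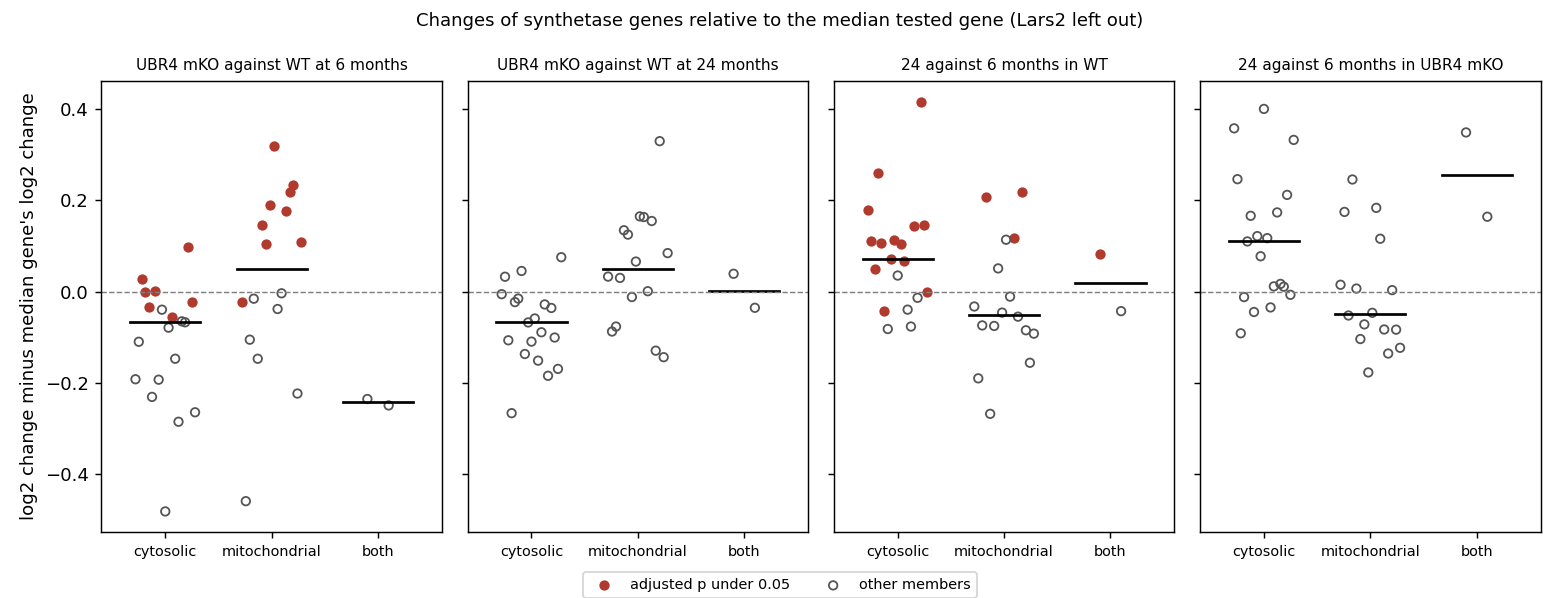
Change of each member minus that of the median tested gene (log2, TPM as deposited, Lars2 left out) in the 4 comparisons, split by compartment, with black bars at the medians and red points for an adjusted p under 0.05 of the unshifted change. Cytosolic bars lie below and mitochondrial bars above 0 in both genotype comparisons, and the reverse holds in both age comparisons. With Lars2 the mitochondrial bar at 6 months would lie at -0.0037. Under median-of-ratios scaling 6 of the 16 red rises at 6 months and 2 of the 18 red rises with age in WT change sign.

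The next comparison asked which synthetase genes differ with age in WT muscle. It shares the WT samples at 6 months with the first comparison, so the 2 sets of values are given only side by side. As deposited, 18 of 38 members rose and 0 fell with limma, where 24.0% of all genes were called higher and 1.07% lower, whereas Dunn's test called 0 members and 0.00% of all genes. Cytosolic members made up 14 (Aars, Cars, Dars, Eprs, Farsa, Farsb, Iars, Lars, Nars, Qars, Tars, Vars, Wars and Yars), mitochondrial members 3 (Ears2, Rars2 and Tars2), and Gars was the remaining one. Groups did not overlap and lay higher for 16 members, against 24.1% of all genes. The median log2 change was 0.34 over cytosolic and 0.21 over mitochondrial members, with and without Lars2, against 0.26 over all genes, and 13 of 19 cytosolic but 5 of 17 mitochondrial members lay above the median gene.

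Vars, the cytosolic valyl enzyme, rose most, from 7.05, 8.38, 6.88 and 6.05 TPM at 6 months to 10.98, 10.2, 10.6 and 13.9 TPM at 24 months, without overlap. The rise of 0.68 ± 0.13 (adjusted p = 0.00262, limma) lay 0.42 above the median gene and was the only call among members under median-of-ratios scaling (0.41, adjusted p = 0.0406), where 4.44% of all genes were called higher and 5.33% lower. That call held in 7 of 16 fits without 1 sample. Eprs, which joins the glutamyl and prolyl enzymes in 1 protein of the multi-synthetase complex, rose from 26.0, 26.8, 22.7 and 21.8 TPM to 31.4, 37.7, 31.0 and 40.2 TPM, again without overlap, by 0.52 ± 0.12 (adjusted p = 0.00888), and by 0.25 (adjusted p = 0.102) with median-of-ratios scaling. Gars, the glycyl enzyme of both compartments, rose from 24.2, 26.7, 24.1 and 22.9 TPM to 30.8, 30.7, 29.0 and 34.0 TPM, by 0.35 ± 0.090 (adjusted p = 0.0143). Without WT replicate 4 at 24 months the adjusted p of Gars was 0.0548, and with median-of-ratios scaling its change was 0.072 (adjusted p = 0.690). Kars, which also serves both compartments, went from 62.5, 66.8, 61.4 and 61.0 TPM to 74.3, 72.6, 67.8 and 79.3 TPM. Its groups did not overlap, and its change of 0.22 ± 0.080 had an adjusted p of 0.0521. With median-of-ratios scaling the change of Kars turned to -0.053, with overlap. In UBR4 mKO muscle Gars was at 23.7, 26.7, 25.5 and 28.5 TPM at 6 months and 29.2, 29.99, 35.9 and 34.3 TPM at 24 months, and Kars was at 62.6, 62.5, 64.1 and 77.7 TPM and at 71.5, 68.8, 73.4 and 75.3 TPM. Gars did not overlap between these ages and Kars did.

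The 2 subunits of the cytosolic phenylalanyl enzyme were called together. Farsa, the alpha subunit, went from 5.42, 6.61, 5.10 and 5.18 TPM to 7.07, 6.77, 6.80 and 8.24 TPM, a rise of 0.37 ± 0.11 (adjusted p = 0.024), or 0.099 (adjusted p = 0.509) with median-of-ratios scaling. Farsb, the beta subunit, went from 27.4, 28.1, 26.3 and 24.8 TPM to 30.6, 30.9, 30.4 and 32.4 TPM, a rise of 0.22 ± 0.076 (adjusted p = 0.0422) that turned to -0.052 under median-of-ratios scaling. Their groups did not overlap with age in either case. Per length, Farsb was higher than Farsa (29.3 against 6.70 TPM in the mean of 16 samples). Farsa lost its call in 5 of 16 fits (adjusted p up to 0.0868) and Farsb in 10 (up to 0.125), among them those without any 1 of the 4 WT samples at 24 months for Farsb. The cytosolic threonyl genes were both well expressed. Tars went from 23.8, 24.3, 18.3 and 19.2 TPM to 27.0, 29.0, 25.5 and 31.6 TPM and rose by 0.41 ± 0.11 (adjusted p = 0.0139), with adjusted p up to 0.0548 without WT replicate 3 or 4 at 6 months or WT replicate 4 at 24 months. Tarsl2, a second threonyl enzyme, went from 27.2, 31.2, 27.0 and 23.8 TPM to 31.8, 29.7, 31.6 and 36.5 TPM, with overlap, and its change of 0.25 ± 0.10 did not pass (adjusted p = 0.0793). Tarsl2 shares 120 exonic bases on the same strand with Tm2d3.

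The count depended on single muscles. It was 5 without WT replicate 4 at 6 months, 5 without WT replicate 4 at 24 months, 6, 11 and 8 without WT replicate 3 or 1 at 6 months or WT replicate 1 at 24 months respectively, and 29 without WT replicate 2 at 6 months. The same fits called, in that order, 9.16%, 10.5%, 12.4%, 17.7%, 12.6% and 46.8% of all genes. Aars, Eprs, Tars2 and Vars were called in every fit. Skeletal muscle, leukocyte and satellite cell and regeneration marker sums were higher at 24 months without overlap and adipocyte and slow myofiber marker sums were lower, and their part was not tested.

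With age in UBR4 mKO muscle, limma called 0 of 38 members in TPM as deposited, where 2.45% of all genes were called higher and 3.85% lower. At an unadjusted p under 0.05 there were 4 members, against 19.7% of all genes, and Dunn's test called 0 members and 0.00% of all genes. Groups did not overlap for 4 higher members and for Lars2, which was lower, against 4.43% and 8.49% of all genes. With median-of-ratios scaling 5 members rose, where 5.97% of all genes were called higher and 5.30% lower, and 0 fell. The count as deposited was 3 without WT replicate 2 or UBR4 mKO replicate 4 at 6 months, and 1 without WT replicate 4 at 6 months or UBR4 mKO replicate 1 at 24 months, where 7.10%, 5.23%, 7.28% and 5.73% of all genes were called. The 5 members were named after their values were seen. Aars, the alanyl enzyme, was at 14.4, 15.1, 16.7 and 17.99 TPM at 6 months and 18.9, 19.7, 19.5 and 21.5 TPM at 24 months, without overlap. Its change was 0.31 ± 0.10 (adjusted p = 0.0747) as deposited and 0.37 ± 0.076 (adjusted p = 0.0057) with median-of-ratios scaling. Mars was at 21.5, 21.2, 22.7 and 28.4 TPM and at 28.04, 28.7, 30.9 and 31.8 TPM, with overlap. That was a change of 0.36 ± 0.11 (adjusted p = 0.0698) as deposited and 0.41 ± 0.090 (adjusted p = 0.00839) with the other scaling. Yars, the tyrosyl enzyme, was at 9.22, 9.43, 9.62 and 10.2 TPM and at 11.5, 12.2, 12.4 and 11.01 TPM, without overlap, and rose by 0.35 ± 0.084 (adjusted p = 0.0157) with median-of-ratios scaling. Gars (0.36, adjusted p = 0.0273) and Cars, the cysteinyl enzyme (0.26, adjusted p = 0.0332), were the others. Aars, Mars and Yars were called in all 16 fits without 1 sample, Gars in 14 and Cars in 11. Cytosolic members lay above the median gene in 14 of 19 cases, and mitochondrial members in 7 of 17. The sum of the 5 endothelial markers was lower at 24 months without overlap (108.6 to 116.9 TPM at 6 months, 55.3 to 90.7 TPM at 24 months), with none at 0 in all samples, and its part was not tested.

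Of the 5 genes with TGATGNAA in their window, Aars, Gars and Yars were among those 5 risers. Mars has a window in which these letters were not found, and Cars has no window. Iars and Tars, which carry it too, changed by 0.14 (adjusted p = 0.234) and 0.031 (adjusted p = 0.866) under the same scaling. As deposited, none of the 5 was called with age in UBR4 mKO muscle. All 5 were called higher with age in WT as deposited, where 24.0% of all genes were, and none under median-of-ratios scaling. Under that scaling Iars and Yars were called lower in UBR4 mKO muscle at 6 months, where 10.2% of all genes were. Other genes of the amino acid response were read beside them. Of 28 listed genes, 19 were tested. Between 6 and 24 months in UBR4 mKO muscle 3 rose (Asns, Mthfd2 and Eif4ebp1) and 0 fell in TPM as deposited, where 2.45% of all genes were called higher, and the same 3 under median-of-ratios scaling, where 5.97% were. In WT 8 rose with age as deposited (Atf3, Asns, Sesn2, Shmt2, Mthfd2, Aldh18a1, Eif4ebp1 and Vldlr), where 24.0% of all genes did, and with median-of-ratios scaling 1 rose (Aldh18a1) and 1 fell (Ddit3), where 4.44% and 5.33% of all genes did. Mthfd2, a mitochondrial folate enzyme, was at a mean of 1.75 TPM at 6 months and 5.45 TPM at 24 months in UBR4 mKO muscle, a rise of 1.54 ± 0.21 (adjusted p = 0.000336). Asns, which makes asparagine, was at 0.744 and 1.64 TPM, a rise of 1.08 ± 0.25 (adjusted p = 0.0143). The filter of 1 TPM is a mean over all 16 samples, so Asns was tested only because it was higher in other groups. Atf4 RNA itself was at 142.6 and 160.9 TPM, a difference of 0.18 ± 0.13 (adjusted p = 0.508). Between genotypes 1 of 19 rose at each age as deposited, Shmt2 at 6 months and Mthfd2 at 24 months, where 43.7% and 0.433% of all genes were called higher. With median-of-ratios scaling Atf4, Atf5 and Ddit3 fell at 6 months, where 10.2% of all genes did, the change of Atf4 being -0.33 ± 0.11 (adjusted p = 0.0459) against 0.029 (adjusted p = 0.859) as deposited.

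The interaction asked whether the genotype difference changed between ages. As deposited, 1 of 38 members was called, Tars2, which was lower, where 0.122% of all genes were called higher and 4.58% lower. Tars2 was at 5.95, 5.82, 5.98 and 6.29 TPM in WT and 5.78, 5.32, 5.97 and 5.12 TPM in UBR4 mKO muscle at 24 months. The genotype difference was 0.54 at 6 months and -0.12 at 24 months, a change of -0.66 ± 0.16 (adjusted p = 0.0271, limma), beside a median gene at -0.31. Under median-of-ratios scaling the interaction was -0.34 ± 0.12 (adjusted p = 0.16), and 0 of 38 members were called, against 1.02% of all genes higher and 0.969% lower. Leaving out UBR4 mKO replicate 3 or 4 at 6 months, WT replicate 1 or 4 at 24 months, or UBR4 mKO replicate 2 at 24 months removed the call (adjusted p up to 0.0640), 11 members were called without WT replicate 2 at 6 months, and 2 without UBR4 mKO replicate 4 at 24 months, where 23.4% and 6.34% of all genes were. The call was also lost without the mitochondrially encoded genes (-0.46, adjusted p = 0.0556) and with the replicate block (adjusted p = 0.0558).

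Members were then compared with each other within a sample, which cancels the scaling between samples. The mean log2 level of cytosolic minus mitochondrial genes, Lars2 left out after its spread was seen, was 1.98, 1.95, 1.90 and 2.05 in WT and 1.86, 1.80, 1.76 and 1.88 in UBR4 mKO muscle at 6 months. At 24 months it was 2.04, 2.12, 1.99 and 2.15 in WT and 1.93, 1.95, 1.95 and 1.95 in UBR4 mKO muscle. UBR4 mKO samples lay below WT samples at both ages without overlap, by 0.14 at 6 months and 0.13 at 24 months. The values were higher at 24 than at 6 months by 0.12 in UBR4 mKO muscle, without overlap, and by 0.10 in WT, with overlap. With Lars2 kept, group means were 1.59 ± 0.13, 1.53 ± 0.053, 1.74 ± 0.10 and 1.71 ± 0.022 (SD, n = 4 each, in the order of the groups above), the genotypes overlapped at both ages, and the differences were -0.057 and -0.028, the latter turning to 0.057 over genes averaging 5 TPM or more and to 0.015 without WT replicate 2 at 24 months. These scores are descriptions without a test.

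**Figure D4:**
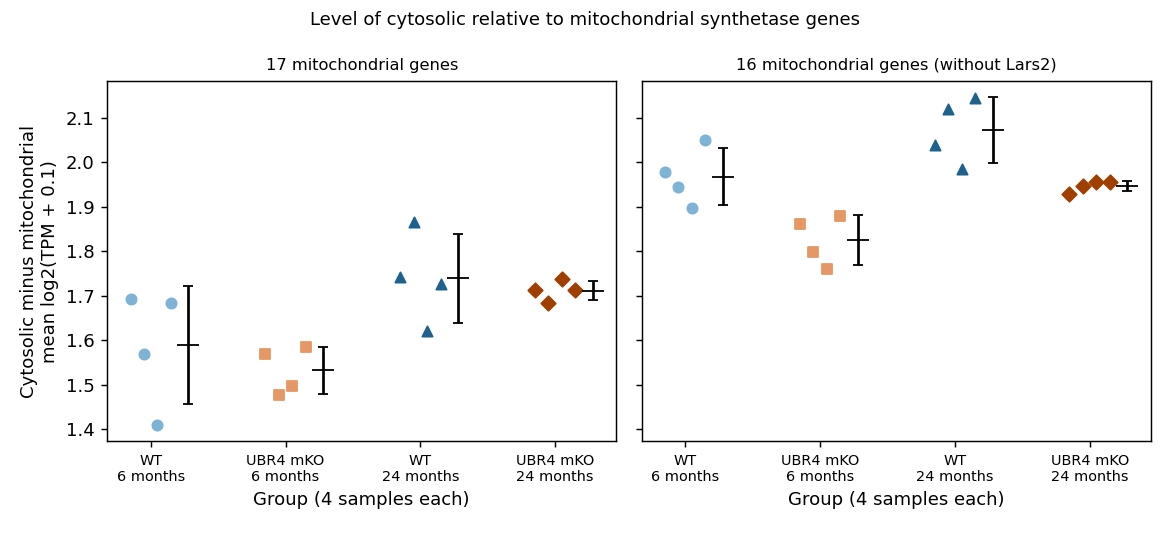
Mean log2(TPM + 0.1) of the 19 cytosolic minus that of the mitochondrial synthetase genes in each sample, with all 17 mitochondrial genes (left) and with Lars2 left out (right), and the mean ± SD of each group of 4 beside the points. On the right UBR4 mKO samples (1.76 to 1.88 and 1.93 to 1.95) lie below the WT samples of their age (1.90 to 2.05 and 1.99 to 2.15), and on the left they overlap them.

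The same question was asked for 13 amino acids with both a cytosolic and a mitochondrial gene matched by letter. At 6 months the cytosolic-to-mitochondrial log2 ratio was lower in UBR4 mKO muscle for 10 of 13 pairs. It did not overlap between genotypes for 6 lower pairs (Aars/Aars2, Iars/Iars2, Mars/Mars2, Nars/Nars2, Sars/Sars2 and Yars/Yars2) and for 2 higher pairs (Cars/Cars2 and Wars/Wars2). Among the pairs without overlap the methionyl pair moved furthest, from 4.15 to 4.33 in WT to 3.43 to 3.79 in UBR4 mKO muscle, a difference of -0.67. The seryl ratio went from 2.29 to 2.56 to 1.92 to 2.12 (-0.46), and the asparaginyl ratio from 4.55 to 4.66 to 4.14 to 4.30 (-0.40). The cysteinyl pair went the other way, from -0.26 to -0.18 to -0.070 to 0.32 (0.35), its mitochondrial member being Cars2.

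At 24 months the ratio was lower in UBR4 mKO muscle for 11 of 13 pairs, but only valyl samples did not overlap, at 1.66 to 2.34 in WT and 1.34 to 1.63 in UBR4 mKO muscle (-0.43). With age in WT 8 of 13 ratios were higher, 3 without overlap (Cars/Cars2, Vars/Vars2 and Wars/Wars2), of which the valyl ratio moved by 0.50. With age in UBR4 mKO muscle 12 of 13 were higher, 6 without overlap (Aars/Aars2, Iars/Iars2, Lars/Lars2, Mars/Mars2, Sars/Sars2 and Yars/Yars2), and the methionyl ratio moved by 0.58 and the tyrosyl ratio by 0.45. Each of these comparisons shares groups with 2 others, and none of the pair ratios was tested. No share over all genes was computed for such ratios, so the counts without overlap are descriptions only. The leucyl ratio carries the spread of Lars2.

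**Figure D5:**
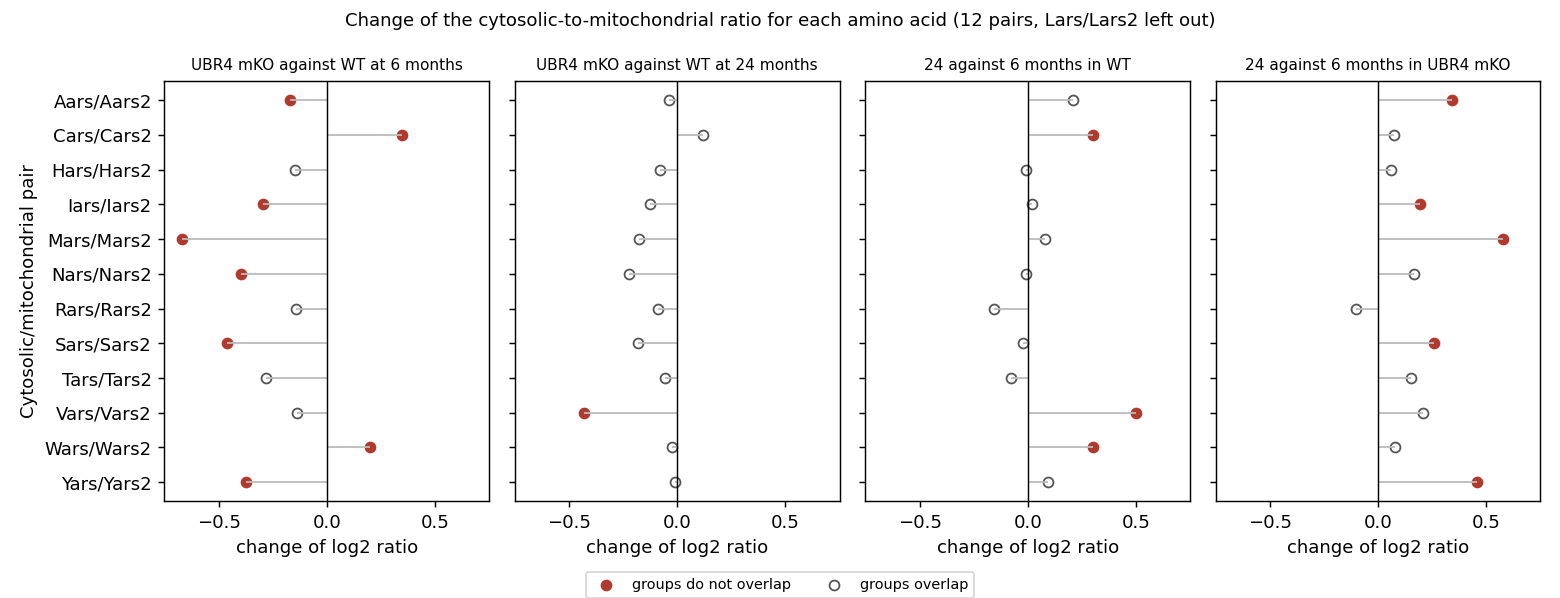
Change of the cytosolic-to-mitochondrial log2 ratio in 4 comparisons for 12 amino acids (the leucyl pair left out), with red points where the samples of the compared groups did not overlap. At 6 months points lie mainly to the left, reaching -0.67 for Mars/Mars2, and with age in UBR4 mKO muscle mainly to the right, reaching 0.58 for the same pair.

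Members were also grouped by the multi-synthetase complex and by the class of the catalytic fold. At 6 months the 8 enzymes of the complex changed by a median of 0.23 and the 12 cytosolic genes outside it by 0.25 in UBR4 mKO muscle as deposited, with 3 and 4 called higher, where 43.7% of all genes were. Under median-of-ratios scaling none of them was called higher, and 3 and 2 were called lower, where 10.2% of all genes were. As deposited, the 19 class I and 19 class II genes had 8 calls each, with medians of 0.29 and 0.26. Eprs was counted as class I by its glutamyl part, whereas its prolyl part is class II. At 24 months the medians were -0.095 in the complex and -0.013 outside it, and 0 of 8 and 3 of 12 lay above the median gene. With age in WT as deposited, the complex had 5 of 8 called (median 0.32), cytosolic genes outside it 9 of 12 (0.37), class I 10 of 19 and class II 8 of 19, where 24.0% of all genes were called higher. Under median-of-ratios scaling only Vars was called, a class I gene outside the complex, where 4.44% of all genes were called higher. The 3 scaffold proteins of the complex, Aimp1, Aimp2 and Eef1e1, had 0 calls in every comparison under both scalings.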

How the data were processed

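RNA of tibialis anterior muscles was sequenced from 16 mice, and the authors trimmed, filtered and aligned the paired-end reads to GRCm38 (mm10 per the labels) and deposited TPM values made with CLC Genomics Workbench. The annotation release, the treatment of reads matching several genes and the use of strand are not given in the sources used here. The study's methods and the GEO labels name different library kits and sequencers. TPM keeps no depth, so depth is unknown.

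Genes averaging 1 TPM or more (10628) entered limma 3.58.1 (R 4.3.3) as log2(TPM + 0.1), a scale that understates changes of low genes. All 16 samples shared the fit, which had a mean per group, a trended variance and no further terms. Adjustment was by Benjamini-Hochberg across every tested gene, with a threshold of 0.05. The study's methods name Kruskal-Wallis and Dunn's tests for 3 replicates a group. As an alternative, Dunn's test alone was run on all 4, with Benjamini-Hochberg adjustment across genes in each comparison and none across comparisons. Separate muscles were the replicates. A test on simulated data for this design recovered 94.5% of 200 genes changed by 1.5 log2. Every member except Lars2 changed by less than that, and recovery of smaller changes was not tested. An absent call therefore does not show that a member was unchanged. Genes shown by sample were the 2 with the largest called rise and fall per comparison relative to the median gene, those called by the interaction, the highest and lowest member, Gars, Kars, Farsa, Farsb, Tars and Tarsl2, and others where the text says that they were picked after their values were seen. The members, the gene lists and this rule were chosen with earlier results of these data known. Exon overlaps came from GENCODE vM21, similar transcripts from BLAST 2.17.0, and figures were drawn with matplotlib 3.10.9.

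Transcripts of 3 members share long runs with another gene, so their values are uncertain. Aars shares 1326 exonic bases with Exosc6, Iars aligns over 37.4% of its transcript to Gm4849 at 96.0% identity, and Iars2 shares 2034 exonic bases with Rab3gap2 on the opposite strand. Hars and Hars2 share 195 exonic bases on opposite strands, and Nars2, Vars2 and Cars2 share 284, 465 and 422 with untested genes on the other strand. Alternatives changed the pseudocount, the filter, the scaling, the mitochondrially encoded genes, the variance model, sample weights, the samples fitted and the replicate block, and left out each sample in turn. Values of 1 member are not reported here singly or as a pair.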

Additional observations from a re-analysis of the deposited data

Results flagged for a closer look

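Among 68 groups of 4 samples examined for the named genes, 2 held a sample far from the other 3, where chance gives about 1 in 20 groups, or 3.4 here. Both were the fourth UBR4 mKO muscle at 6 months. Kars was at 77.7 TPM there and at 62.5 to 64.1 TPM in the other 3 muscles. Tars was at 28.8 TPM there and at 24.1 to 24.8 TPM in the other 3. Both flags rest on TPM as deposited. This muscle had the largest median-of-ratios factor of the 16 samples (1.17), so genes tended to read high in it.

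The genotype difference of Tars2 changed between ages by -0.66 log2 (adjusted p = 0.0271, limma), from 0.54 at 6 months to -0.12 at 24 months. The call was lost in 5 of 16 fits without 1 sample, and with median-of-ratios scaling, without the mitochondrially encoded genes and with the replicate block.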

How the results depend on the processing

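At 24 months the count of called members was 0 under each alternative run. For UBR4 mKO against WT at 6 months it was 16, moving to 7 with median-of-ratios scaling, 6 without the mitochondrially encoded genes (3 higher, 3 lower, with 14.8% of all genes called) and 9 with Dunn's test (23.4%), and for age in WT it was 18, moving to 1, 3 (9.45%) and 0 (0.00%) under the same settings and to 32 with array weights (61.5%). With array weights the count for UBR4 mKO against WT at 6 months was 24 (64.1%). For age in UBR4 mKO muscle it was 0, moving to 5, 4 (9.28%), 4 with array weights (16.4%) and 1 with only the groups compared (4.13%), and for the interaction 1, moving to 0 with median-of-ratios scaling, 0 without mitochondrially encoded genes (1.94%), 0 with the replicate block (2.67%) and 9 with array weights (26.9%). The cause was not tested. Leaving out 1 sample gave 8 to 25, 0 to 0, 5 to 29, 0 to 3 and 0 to 11 calls in the order 6 months, 24 months, age in WT, age in UBR4 mKO and interaction, and 2 to 11, 0 to 0, 0 to 3, 3 to 6 and 0 to 1 with median-of-ratios scaling. With that scaling, each highest count above 0 came without UBR4 mKO replicate 3 at 24 months. That fit called 2978 genes at 6 months, 2011 for age in WT, 1569 for age in UBR4 mKO and 349 for the interaction. In the same order, the lowest counts came with 1064 to 1233, 508 to 1021, 666 to 719 and 77 to 361 genes called. Under median-of-ratios scaling 6 called members changed sign at 6 months and 2 with age in WT, among them Eprs (-0.027) and Farsa (-0.055) at 6 months, and Farsb (-0.052) and Yars (-0.0080) with age in WT. Of all genes, 4645 were called higher and 122 lower at 6 months, and 708 and 1082 with median-of-ratios scaling. Counts over all genes moved from 2669 to 1038 for age in WT, from 669 to 1197 for age in UBR4 mKO muscle and from 500 to 211 for the interaction under the same scaling.

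The cytosolic minus mitochondrial mean at 24 months of -0.028 became 0.057 with a mean TPM of at least 5 and -0.13 without Lars2, and that for age in UBR4 mKO muscle of 0.18 became 0.23 and 0.12. Leaving out 1 sample gave -0.12 to -0.022 at 6 months, -0.067 to 0.015 at 24 months, 0.090 to 0.19 for age in WT, 0.16 to 0.20 for age in UBR4 mKO muscle and -0.010 to 0.089 for the interaction.

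The labels number replicates 1 to 4 in each group, but of 24 same-numbered pairs only 4 correlated in their deviations by over 0.1 (r from -0.35 to 0.18). No pairing by number was seen, though low correlations cannot exclude one. The replicate block gave 13 calls at 6 months, 0 at 24 months, 12 for age in WT, 0 for age in UBR4 mKO and 0 for the interaction, with 39.9%, 0.358%, 19.0%, 5.01% and 2.67% of all genes called. With median-of-ratios scaling it gave 6, 0, 1, 5 and 0 calls among members. Over all genes it then called 1599, 36, 891, 1008 and 137 in the same order.

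Leaving out Lars2 and the added median-of-ratios fits (with the replicate block, or leaving out each sample) were chosen after seeing the data. TPM keeps no depth, so counting error could not be stated for low members such as Mars2 (1.57 TPM).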

Other observations

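Genes that act beside the synthetases were read from 3 further lists. Of the 7 elongation factors that deliver charged tRNA, 5 rose in UBR4 mKO muscle at 6 months as deposited (Eef1a1, Eef1a2, Eef1g, Tufm and Tsfm) and 1, Eef1a1, with median-of-ratios scaling, where 43.7% and 6.66% of all genes were called higher. Eef1a1, the common form of the factor, had a mean of 173.3 TPM in WT and 293.1 TPM in UBR4 mKO muscle at 6 months, a rise of 0.75 ± 0.10 (adjusted p = 0.000133, limma) as deposited and 0.40 (adjusted p = 0.0419) with median-of-ratios scaling. Eef1a2, the muscle form, went from 626.8 to 873.2 TPM, a rise of 0.48 ± 0.089 (adjusted p = 0.000965), with a change of 0.13 (adjusted p = 0.393) with the other scaling. With age in WT, Eef1a2 and Tufm rose as deposited and 0 of the 7 with median-of-ratios scaling, where 24.0% and 4.44% of all genes did.

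Of the 4 genes for the mitochondrial glutamine route and initiator formylation, Qrsl1 and Mtfmt rose at 6 months as deposited, where 43.7% of all genes did, and with median-of-ratios scaling Gatc alone was called, falling by 0.36 (adjusted p = 0.013), where 10.2% of all genes fell. Gatb was the 1 called higher with age in WT as deposited, where 24.0% of all genes were. Of the 4 genes that edit mischarged tRNA, 0 were called as deposited in any comparison, and Dtd1 and Prorsd1 fell at 6 months with median-of-ratios scaling, by 0.42 (adjusted p = 0.0163) and 0.37 (adjusted p = 0.0285), against the same 10.2% of all genes.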
